A study of Mus musculus with 2 samples.

Results

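The genes described here are 10 genes of iron uptake, storage and hepcidin control in mouse liver, 10 of the 21878 genes listed in the deposited tables, and they were selected by gene symbol. They are *Hamp*, *Tfr2*, *Hfe*, *Trf*, *Tfrc*, *Slc11a2*, *Slc40a1*, *Fth1*, *Ftl1* and *Ireb2*. PolyA RNA was sequenced from 2 liver libraries of FVB/N mice, 1 given TSA and 1 given no treatment, and both were labelled as having received c-Myc through hydrodynamic tail vein injection, in which a large volume given quickly carries DNA into hepatocytes. The sources used here give no dose, time, age or sex, spell out no name for TSA, and do not say whether a library came from tumour, from whole liver or from a pool of animals. The series title concerns the effect of TSA on liver cancer driven by c-Myc.

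Iron travels in blood bound to transferrin, the product of *Trf*, and cells take it up through transferrin receptor 1, the product of *Tfrc*. Hepatocytes store iron in ferritin and secrete hepcidin, a peptide hormone from *Hamp* that binds ferroportin, the iron exporter encoded by *Slc40a1*, and leads to its degradation. Hepatocytes raise hepcidin output when bone morphogenetic proteins (BMPs) from sinusoidal endothelium activate SMAD factors, and the products of *Tfr2* and *Hfe* help to report the iron load of transferrin to that pathway. Iron regulatory proteins act after transcription, by binding a hairpin called the iron-responsive element in the mRNAs of ferritin, ferroportin and transferrin receptor 1.

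With TSA, *Hamp* and the iron-sensing genes *Tfr2* and *Hfe* were higher, as was *Trf*. After TMM scaling, described below, *Fth1* and *Ftl1* were also higher and *Tfrc* was close to 2-fold below the untreated library. *Slc40a1*, *Slc11a2* and *Ireb2* lay nearer to the untreated level with that scaling. On total counts *Tfrc* and *Ireb2* were called lower, and *Fth1* and *Ftl1* were not called. A gene was called higher or lower at a ratio (TSA over untreated) of at least 2 in either direction with a 95% interval that excluded 1. The interval is an exact binomial interval for counting error in reads, which are not independent molecules. There was 1 library per group, so no difference has a replicate check and no p-value is given. By this rule 6 of the 10 genes were higher and 0 were lower after TMM scaling, which equalises the bulk of genes between libraries. Among all 13027 genes tested 26.0% were higher and 27.4% were lower. Without that scaling, on total counts, 4 were higher and 2 were lower, against 16.0% and 48.7% of all genes. The median log2 ratio of the 10 genes was 1.24 with TMM, beside -0.11 for all genes tested. All 10 had enough reads to be tested, with 871 summed counts for the scarcest, *Hfe*.

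The libraries held 17088227 (TSA) and 17281523 (untreated) counts. TMM moved every log2 ratio up by 0.85 relative to total counts, and the median of all genes on total counts was -0.96. Values for marker genes of liver cell types differed as well, and their part in the results below was not tested. Hepatocyte markers were higher in 8 of 8 cases, from 4.47-fold for *Fgb* to 1129-fold for *Tat*, and their summed level was 167179 CPM (TMM-scaled counts per 1e6) with TSA and 7136 CPM without it. Proliferation genes were lower in 6 of 6, with a summed level of 66.4 CPM with TSA and 1598 CPM without it. Endothelial markers were higher in 7 of 8, with 625 CPM against 107 CPM in sum. Erythroid markers were higher in 7 of the 7 tested, with 362 CPM against 71.8 CPM. Of the erythroid list *Hba-a2*, with 0 counts with TSA and 1 without it, was too scarce to be tested. Macrophage markers went both ways, 5 higher and 1 lower of 10, with 733 CPM against 498 CPM. Stellate cell markers were higher in 4 and lower in 1 of 6 (468 CPM against 184 CPM), and cholangiocyte markers higher in 2 and lower in 2 of 4 tested (7.86 CPM against 46.0 CPM). These calls were made with TMM, where 26.0% of all genes were higher and 27.4% lower. With total counts (16.0% and 48.7% of all genes) the hepatocyte and proliferation calls stayed the same. Endothelial markers were then higher in 5 of 8 and erythroid markers in 6 of 7. Macrophage markers had 3 higher and 3 lower, stellate markers 3 and 2, and cholangiocyte markers 1 and 2. In bulk liver RNA, fewer cells of a type and less RNA per cell cannot be told apart.

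**Figure D1:**
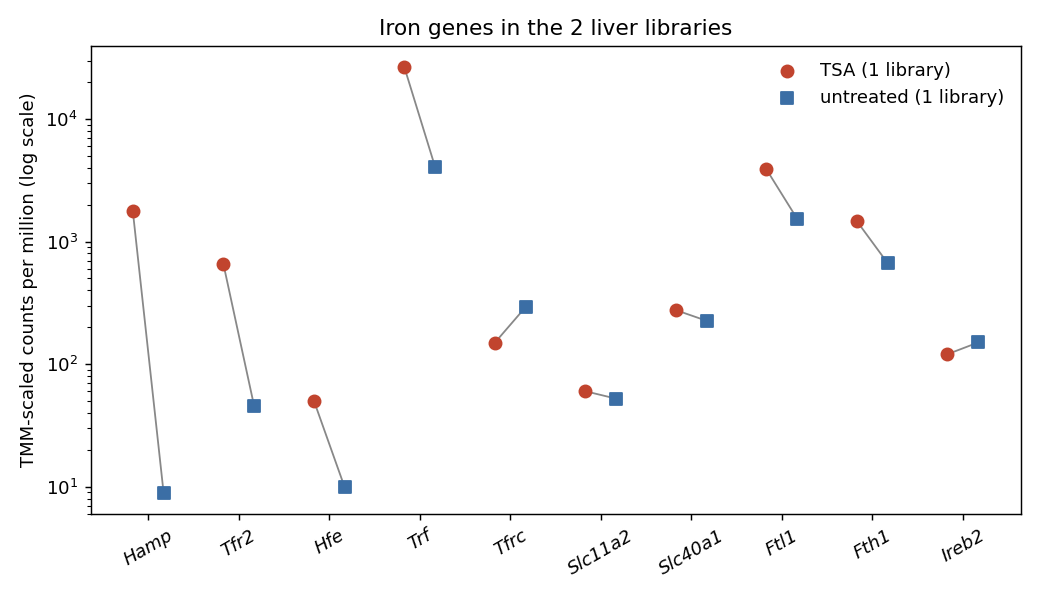
TMM-scaled CPM (log axis) of the 10 iron genes, with the TSA library as circles and the untreated library as squares, 1 library each and no error bars. *Hamp* has the longest line, with 1773 CPM with TSA and 8.92 CPM without it, and *Tfrc* and *Ireb2* are the genes whose TSA point lies below the untreated one.

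*Hamp*, the hepcidin gene, showed the largest ratio of the 10. It had 22547 counts (1773 CPM) in the TSA library, against 207 counts (8.92 CPM) in the untreated library. The ratio was 199-fold (173 to 229) with TMM and 110.2-fold with total counts, and 98.8% of all genes tested had a smaller ratio. Per kilobase of transcript, *Hamp* stood at 3340.4 FPKM, rank 13 of all listed genes, with TSA, and at 30.3 FPKM, rank 2597, without it. Hepcidin mRNA thus stood among the most abundant transcripts with TSA and lower in the order without treatment.

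*Hamp2*, a neighbouring copy of the hepcidin gene found in mice, had 387 counts with TSA and 3 without it. Its ratio was 235-fold, with a wide interval (79.97 to 1147) because of the 3 counts. The ratio of *Hamp* to *Hamp2* in FPKM was 64.5 with TSA and 76.3 without it, and its change, 0.844-fold (0.269 to 2.65), had an interval that includes 1. The copies share sequence: 16.6% of the 50-base words of the *Hamp* mRNA also occur in *Hamp2*, so reads of *Hamp* could account for counts at *Hamp2* to an extent that was not tested.

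The sequences directly upstream of both copies are shown because both genes had ratios of over 100 and their promoters differ at a known control element. Each run gives the 150 bases before the RefSeq transcript start on GRCm38.p6, minus strand, at chr7:30944030-30944179 for *Hamp* and chr7:30924182-30924331 for *Hamp2*. Capitals mark GGCGCC, the core letters of the element through which BMP-activated SMAD factors act on *Hamp*, and TTCNNNGAA, the letters of a STAT site, through which interleukin 6 acts.
Hamp: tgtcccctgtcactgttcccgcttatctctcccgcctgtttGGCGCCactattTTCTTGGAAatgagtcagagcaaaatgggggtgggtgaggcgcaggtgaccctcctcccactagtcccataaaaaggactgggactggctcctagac
Hamp2: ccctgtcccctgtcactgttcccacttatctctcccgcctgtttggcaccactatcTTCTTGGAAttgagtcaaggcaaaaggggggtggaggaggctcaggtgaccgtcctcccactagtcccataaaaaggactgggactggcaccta
The 2 runs were identical in 135 of 153 aligned columns (88.2%), 6 of which held a gap. TTCNNNGAA was present in both, starting at base -97 of *Hamp* and base -94 of *Hamp2* relative to the transcript start. GGCGCC was present in *Hamp* from base -109 and not in this window of *Hamp2*, where the aligned letters carry G4A, counted from the first base of GGCGCC. Of 32851 promoter entries 9.59% held GGCGCC, 7.02% held TTCNNNGAA and 6.02% held CACGTG, the letters of a MYC E-box, within 250 bases before the start on either strand. Promoter entries matched 7 of the 10 genes. GGCGCC was found for *Hamp* and *Tfrc*, TTCNNNGAA for *Hamp* alone, and CACGTG for none of the 7. For *Tfrc* the match lay in the entry at chr16:32608646-32608945 and not in that at chr16:32608872-32609171. The 7 genes had 11 entries and the shares above are per entry, so genes with several entries had more chances to match. A match is a description of letters and says nothing of binding.

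The hepatocyte iron sensors were higher together with *Hamp*. *Tfr2*, for transferrin receptor 2, had 8391 counts (659.7 CPM) with TSA, against 1059 counts (45.6 CPM) without it. Its ratio was 14.5-fold (13.6 to 15.4), and 8.01-fold with total counts. *Hfe*, for the MHC class I-like protein mutated in hereditary haemochromatosis, had 641 counts (50.4 CPM) with TSA, against 230 counts (9.91 CPM) without it. Its ratio was 5.09-fold (4.37 to 5.94), and 2.82-fold with total counts. *B2m*, for the light chain that HFE needs to reach the cell surface, had 1848 FPKM with TSA and 359.8 FPKM without it, and was 9.27-fold (9.0 to 9.55) higher. *Tfr2* differed more than *Hfe*: the FPKM ratio of *Hfe* to *Tfr2* was 0.10 with TSA and 0.285 without it, a 2.84-fold (2.41 to 3.35) lower ratio that no common scaling factor can move.

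Of the other 20 genes fixed for BMP and SMAD signalling and hepcidin control, with *Hamp2* included, TMM scaling gave 7 higher and 2 lower, while total counts gave 6 in each direction. Their median log2 ratio was 0.66, beside -0.11 for all genes. Of all genes 26.0% were higher and 27.4% lower with TMM, and 16.0% and 48.7% with total counts. The ligand genes were higher: *Bmp2* had 411 counts with TSA and 17 without it (44.1-fold, 27.2 to 76.5), and *Bmp6* had 145 and 26 counts (10.2-fold, 6.67 to 16.1), in the library whose endothelial markers were also higher. *Hjv*, for the BMP co-receptor hemojuvelin, had 33.3 FPKM with TSA and 19.1 FPKM without it, 3.14-fold higher with TMM and below the threshold, at 1.74-fold, with total counts. *Tmprss6*, for the protease that restrains hepcidin by acting on hemojuvelin, was 27.9-fold (25.8 to 30.2) higher, with 160.3 FPKM with TSA and 10.4 FPKM without it. Genes on both sides of hepcidin control, the activating ligands and this inhibitor, were thus higher in the same library.

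Genes that BMP signalling is known to switch on did not share a direction. *Atoh8* had 343 counts with TSA and 5 without it (125-fold, 53.1 to 388) and *Id3* was 6.53-fold (5.02 to 8.58) higher. *Smad7*, for an inhibitory SMAD, had 53 counts with TSA and 255 without it and was 2.64-fold (1.95 to 3.61) lower. *Id1* and *Smad6* were not called, at 1.51-fold and 1.23-fold with TMM and at 0.837-fold and 0.68-fold with total counts. The shared receptor and SMAD genes *Acvr1*, *Bmpr1a*, *Bmpr2*, *Acvr2a*, *Smad1*, *Smad5* and *Smad4* were not called with TMM, with ratios from 0.672 (*Smad4*) to 1.97 (*Bmpr2*), and of them *Bmpr1a*, *Smad5* and *Smad4* were lower with total counts. *Furin*, for a convertase that processes prohepcidin, was not called at 1.64-fold (0.91-fold with total counts). *Erfe*, for erythroferrone, a hormone of red cell precursors that lowers hepcidin, had 5 counts with TSA and 204 without it. It was 22.4-fold (9.42 to 69.6) lower with TSA, in the library with the higher erythroid markers.

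Transferrin mRNA was abundant in both libraries. *Trf* had 337145 counts (26505 CPM), which is 1.97% of all counts, with TSA, against 94299 counts (4062 CPM), or 0.546%, without it. It was 6.53-fold (6.48 to 6.57) higher with TMM and 3.62-fold higher with total counts. By FPKM it held rank 2 with TSA and rank 4 without treatment. Of its 50-base words 68.3% also occur in the transcript model *Gm20425*, so the handling of reads shared by overlapping models could touch its count.

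The list of plasma iron and heme scavengers holds plasma binding proteins and the receptors *Lrp1* and *Cd163*. It was higher in 7 of 7 genes with TMM and 6 of 7 with total counts. Among all genes tested 26.0% were higher and 27.4% lower with TMM, and 16.0% and 48.7% with total counts. Its median log2 ratio with TMM was 4.20, beside -0.11 for all genes. *Hp*, for the haemoglobin binder haptoglobin, was 77.6-fold (72.4 to 83.4) higher, with 1468 FPKM with TSA and 34.1 FPKM without it. *Hpx*, for the heme binder hemopexin, was 27.8-fold (26.9 to 28.7) higher, and *Cp*, for the ferroxidase ceruloplasmin, 45.3-fold (42.6 to 48.3) higher. *Ambp*, whose product alpha-1-microglobulin binds heme, was 3.36-fold (3.3 to 3.42) higher and below the threshold at 1.86-fold with total counts. The *Trf* ratio of 6.53 was smaller than that of all 3 of *Hp*, *Hpx* and *Cp* and larger than that of *Ambp*. The scavenger receptor genes *Lrp1*, for the hemopexin receptor, and *Cd163*, for the haptoglobin receptor of macrophages, were 7.94-fold and 16.1-fold higher. *Lcn2*, for a binder of bacterial siderophores, was 18.4-fold higher.

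**Figure D2:**
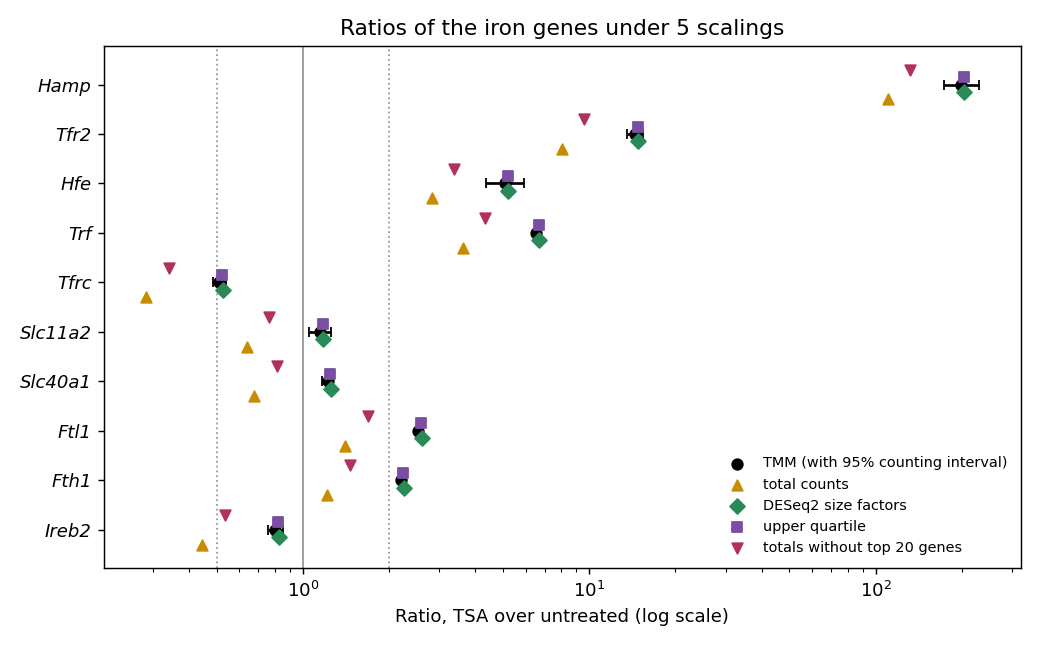
Ratio of TSA over untreated (log axis) for the 10 iron genes under 5 scalings of the same counts, with the 95% counting interval on the TMM value and dotted lines at 2-fold in either direction. *Hamp*, *Tfr2*, *Hfe* and *Trf* lie above 2 under all 5 scalings, *Fth1* and *Ftl1* lie above 2 under 3 of them, and *Slc40a1* and *Slc11a2* lie on opposite sides of 1 depending on the scaling.

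The receptor gene differed in the other direction from *Trf*, by less than the threshold with TMM. *Tfrc* had 1904 counts (149.7 CPM) with TSA, against 6793 counts (292.6 CPM) without it. Its ratio was 0.512 (0.486 to 0.538) with TMM, or 1.95-fold (1.86 to 2.06) below the untreated level, short of the 2-fold rule. With total counts it was lower by 3.53-fold, and by totals without the most abundant genes the ratio was 0.34. The direction was the same under all 5 scalings. *Tfrc* is among the genes that MYC is known to activate, and dividing cells express it strongly. Any part of MYC or of cell division in the *Tfrc* ratio was not tested.

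The balance between the transferrin receptors was inverted. The FPKM ratio of *Tfrc* to *Tfr2* was 0.175 with TSA and 4.94 without it, so that *Tfr2* mRNA was 5.72 times as abundant per length with TSA, while *Tfrc* mRNA was the more abundant without treatment. The change was 28.3-fold (26.1 to 30.7) and is free of scaling. The ratio of *Trf* to *Tfrc* was 393 with TSA and 30.8 without it, a 12.8-fold (12.1 to 13.4) higher ratio.

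**Figure D3:**
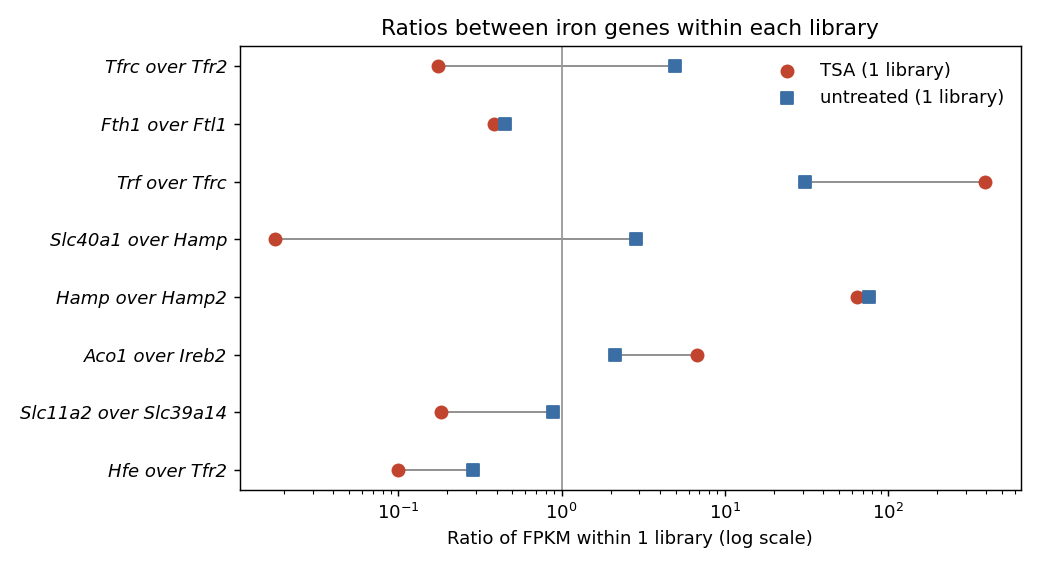
Ratio of the FPKM of the first gene to that of the second within each library (log axis), with the TSA library as circles and the untreated library as squares, 1 library each. *Tfrc* over *Tfr2* and *Slc40a1* over *Hamp* lie on opposite sides of 1 in the 2 libraries, while *Fth1* over *Ftl1* and *Hamp* over *Hamp2* nearly coincide.

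*Slc11a2*, for DMT1, which moves iron out of the endosome after uptake with transferrin, was not called. It had 764 counts (60.1 CPM) with TSA, against 1213 counts (52.2 CPM) without it, a ratio of 1.15 (1.05 to 1.26) with TMM and 0.637 with total counts. *Slc39a14*, for ZIP14, which takes up iron that is not bound to transferrin, was 5.61-fold (5.31 to 5.92) higher and stayed higher, at 3.11-fold, with total counts. The FPKM ratio of *Slc11a2* to *Slc39a14* was 0.182 with TSA and 0.889 without it, a 4.88-fold (4.39 to 5.42) lower ratio.

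The 12 other genes fixed for uptake and endosomal release, of which 11 were tested, were mixed. With TMM 4 were higher and 2 lower (36.4% and 18.2%, against 26.0% and 27.4% of all genes). With total counts 3 were higher and 4 lower, against 16.0% and 48.7% of all genes. The median log2 ratio of the list was 0.05 with TMM. The STEAP family, most of whose members reduce iron and copper, was split by member. *Steap4* was 20.4-fold (17.7 to 23.6) higher, and *Steap3*, the endosomal reductase of red cell precursors, was not called at 1.04-fold (0.575-fold with total counts). *Steap2* was 9.86-fold (8.26 to 11.9) lower. *Steap1* had 0 counts with TSA and 142 without it. Its point value was 25.9-fold lower with a floor of 3 counts set for the TSA library, with a counting interval from 20.8-fold upward. *Slc39a8*, for ZIP8, was 4.63-fold higher, and *Mcoln1*, for an endolysosomal cation channel, was 2.88-fold higher with TMM and 1.6-fold, not called, with total counts. *Cltc*, for the clathrin heavy chain that coats the endocytic pit, was not called, at 0.718 with TMM, and was lower, at 0.398, with total counts.

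*Slc40a1*, for ferroportin, the iron exporter of hepatocytes and macrophages, was not called. It had 3508 counts (275.8 CPM) with TSA, against 5240 counts (225.7 CPM) without it. The ratio was 1.22 (1.17 to 1.28) with TMM and 0.677 with total counts, so its direction depends on scaling. Against hepcidin the difference was large: the FPKM ratio of *Slc40a1* to *Hamp* was 0.0176 with TSA and 2.86 without it. In the TSA library hepcidin mRNA was 56.8 times as abundant per length as ferroportin mRNA, and the ratio was 163-fold (141 to 188) lower than without treatment. Hepcidin acts on ferroportin protein, which was not measured.

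The ferritin genes kept near-equal proportions. *Fth1*, for the heavy chain that oxidises iron, had 18633 counts (1465 CPM) with TSA, against 15472 counts (666 CPM) without it. Its ratio was 2.20 (2.15 to 2.25) with TMM. *Ftl1*, for the light chain, had 49435 counts (3886 CPM) with TSA, against 35598 counts (1533 CPM) without it. Its ratio was 2.53 (2.5 to 2.57) with TMM. Both were called higher with TMM and neither with total counts, where the ratios were 1.22 and 1.40. The FPKM ratio of *Fth1* to *Ftl1* was 0.388 with TSA and 0.448 without it, a change of 0.867-fold (0.846 to 0.889), which is small beside the 28.3-fold change between the transferrin receptors. Both stood high in each library, at ranks 47 and 16 by FPKM with TSA and ranks 55 and 5 without it. *Ftl1* shares 69.7% of its 50-base words with the processed copy *Ftl1-ps1*, and its count depends on how such reads were assigned.

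*Ireb2*, for iron regulatory protein 2, was not called. It had 1533 counts (120.5 CPM) with TSA, against 3488 counts (150.2 CPM) without it, a ratio of 0.802 (0.755 to 0.852) with TMM and 0.444, which is lower by the rule, with total counts. *Aco1*, for iron regulatory protein 1, the cytosolic aconitase, had 81.1 FPKM with TSA and 57.4 FPKM without it, a ratio of 2.55 (2.45 to 2.65) with TMM and 1.41, not called, with total counts. The FPKM ratio of *Aco1* to *Ireb2* was 6.75 with TSA and 2.12 without it, a 3.18-fold (2.96 to 3.42) higher ratio under any scaling. *Fbxl5*, *Skp1* and *Cul1*, for the ubiquitin ligase that degrades iron regulatory protein 2 when iron is plentiful, were not called with TMM, at 0.767, 0.93 and 0.826, and *Fbxl5* and *Cul1* were lower with total counts. *Pcbp1* and *Pcbp2*, for chaperones that deliver iron to ferritin, were 2.37-fold (2.27 to 2.48) and 2.18-fold (2.09 to 2.28) lower. *Ncoa4*, for the receptor that sends ferritin to the lysosome, was not called at 1.45-fold, or 0.803-fold with total counts. Of the 9 tested genes of sensing and ferritin handling, *Aco1* and *B2m* were the 2 higher ones and *Pcbp1* and *Pcbp2* the 2 lower ones, and with total counts 1 was higher and 4 were lower. Each direction held 22.2% of them with TMM, near the 26.0% higher and 27.4% lower of all genes. With total counts 16.0% of all genes were higher and 48.7% lower. The median log2 ratio of the list with TMM was -0.11, as it was for all genes.

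The hairpins that iron regulatory proteins bind are shown for the genes above because the site of the element sets the effect of binding: it blocks translation of mRNAs that carry it before the coding sequence and protects the *Tfrc* mRNA, which carries several after it. Each run is 29 bases of a GENCODE M21 transcript on GRCm38, with the unpaired C and the CAGTG of the loop in capitals. The search letters were CNNNNNCAGTGN with a last base other than G, on the transcript strand, with all 5 bases before the loop able to pair with those after it, G to T pairs included. A second form allowed 1 unpaired base after the loop.
Fth1 before the coding sequence, chr19:9982732-9982760, plus strand: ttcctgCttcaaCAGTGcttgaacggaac
Ftl1 before the coding sequence, chr7:45459779-45459807, minus strand: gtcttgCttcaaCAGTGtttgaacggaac
Slc40a1 before the coding sequence, chr1:45925465-45925493, minus strand: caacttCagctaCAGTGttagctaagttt
Slc11a2 after the coding sequence, chr15:100395153-100395181, minus strand: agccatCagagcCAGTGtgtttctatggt
Tfrc after the coding sequence, chr16:32631219-32631247, plus strand: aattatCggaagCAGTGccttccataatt
Tfrc after the coding sequence, chr16:32631598-32631626, plus strand: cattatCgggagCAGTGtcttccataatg
Tfrc after the coding sequence, chr16:32631663-32631691, plus strand: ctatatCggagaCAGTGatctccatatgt
Tfrc after the coding sequence, chr16:32631710-32631738, plus strand: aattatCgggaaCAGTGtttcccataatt
The *Slc11a2* site matched the second form and lies in 1 of the transcript forms of that gene, and the deposited counts per gene do not separate the forms. Of 21877 genes with protein-coding transcripts 1.02% held the strict form and 2.94% held either form somewhere in a transcript, so a match by itself is not rare. With TMM the members with an element before the coding sequence had ratios of 2.20 (*Fth1*), 2.53 (*Ftl1*) and 1.22 (*Slc40a1*). Those with an element after it had ratios of 0.512 (*Tfrc*) and 1.15 (*Slc11a2*). With total counts the ratios in the same order were 1.22, 1.40 and 0.677, and 0.283 and 0.637. Any part of the element in these ratios was not tested. mRNA counts do not measure translation.

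The other mRNAs known to carry such an element were not called lower in any case, with 3 higher of 5 with TMM and 2 with total counts. Of all genes 26.0% were higher and 27.4% lower with TMM, and 16.0% and 48.7% with total counts. *Epas1*, for the hypoxia factor HIF-2alpha, was 15.7-fold (14.2 to 17.5) higher, with 38.2 FPKM with TSA and 4.38 FPKM without it. *Alas2*, for the heme synthesis enzyme of red cell precursors, was 5.38-fold (4.16 to 7.03) higher and also stands in the erythroid marker list.

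**Figure D4:**
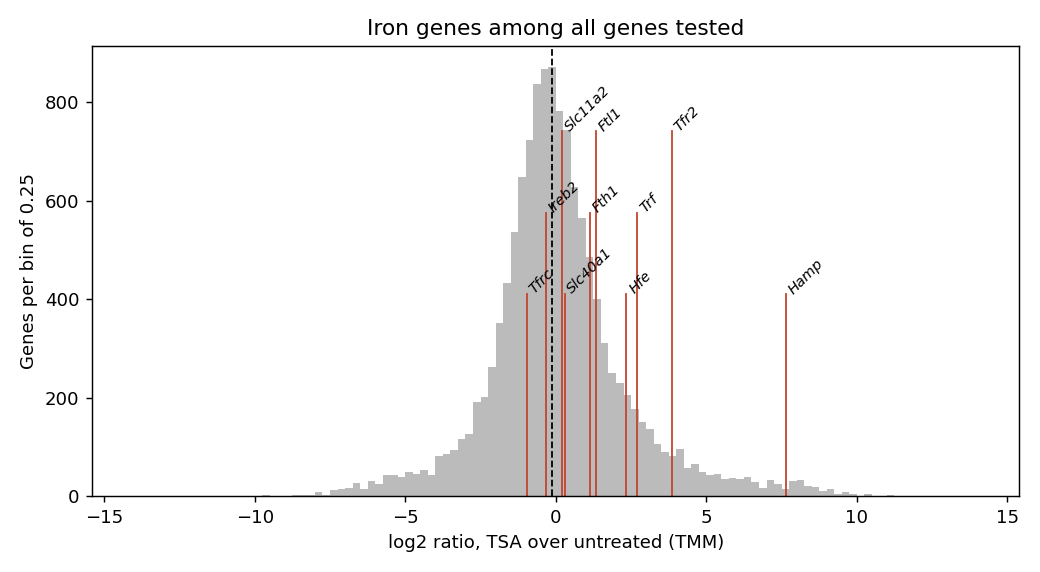
Histogram of the log2 ratio (TSA over untreated, TMM) of the 13027 genes tested in bins of 0.25, with a dashed line at their median of -0.11 and a red line at each of the 10 iron genes. *Hamp* lies in the right tail with 98.8% of genes below it and *Tfrc* left of the centre with 28.4% below it.

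Heme synthesis, the main use of iron in hepatocytes beside iron-sulfur clusters, was higher at most steps with TMM. Of 16 genes of heme synthesis, breakdown and export TMM scaling gave 10 higher and 1 lower (62.5% and 6.25%, against 26.0% and 27.4% of all genes). Total counts gave 5 higher and 4 lower, against 16.0% and 48.7% of all genes. The median log2 ratio with TMM was 1.21. *Alas1*, the rate-limiting enzyme of hepatic heme synthesis, had 278 FPKM with TSA and 19.3 FPKM without it and was 26-fold (24.5 to 27.7) higher. *Alad* was 4.36-fold (4.16 to 4.58) and *Fech*, for the enzyme that inserts iron, 4.91-fold (4.55 to 5.31) higher. *Uros*, *Urod*, *Cpox* and *Ppox*, for enzymes between these steps, were 2.29-fold, 2.34-fold, 2.92-fold and 2.11-fold higher with TMM, and none of the 4 was called with total counts. *Hmox1*, for the heme oxygenase that frees iron from heme, was not called at 1.29-fold, or 0.714-fold with total counts. *Flvcr1*, for a heme exporter, was 3.89-fold (3.09 to 4.94) lower. *Blvrb*, for a biliverdin reductase, was 5.28-fold (4.65 to 6.01) higher, while *Blvra*, for the other, was not called at 0.539 with TMM and was lower, at 0.299, with total counts.

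Mitochondrial iron entry and iron-sulfur cluster genes were mostly not called with TMM. Of 17 genes 2 were higher and 3 lower (11.8% and 17.6%, against 26.0% and 27.4% of all genes). With total counts 0 were higher and 7 lower, against 16.0% and 48.7% of all genes. The median log2 ratio with TMM was 0.14. *Cisd1*, for the iron-sulfur protein mitoNEET, was 2.43-fold (2.26 to 2.61) and *Iscu*, for the scaffold on which clusters form, 2.06-fold (1.87 to 2.28) higher with TMM, and neither was called with total counts. Among the lower ones *Hscb*, for a co-chaperone of cluster transfer, was 2.39-fold (1.57 to 3.79) lower and *Abcb8* 2.13-fold (1.94 to 2.34) lower. *Nfs1*, for the cysteine desulfurase that supplies the sulfur, was not called at 0.535 with TMM and was lower, at 0.297, with total counts. *Slc25a37*, for the iron importer mitoferrin 1, was not called, at 1.11-fold with TMM and 0.613-fold with total counts.

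**Figure D5:**
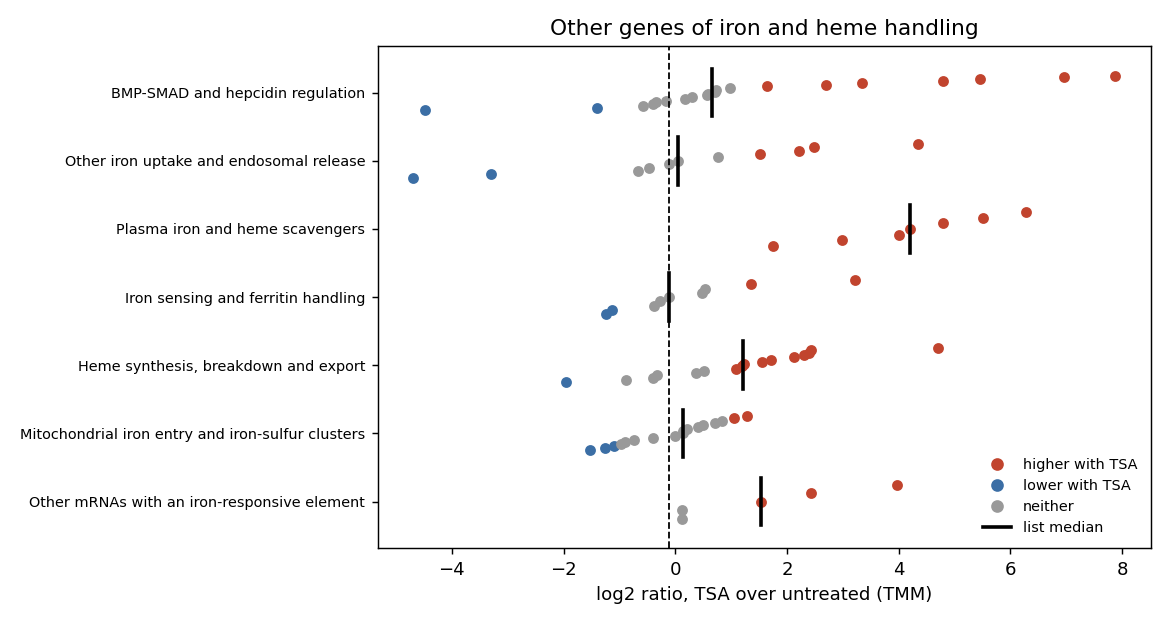
log2 ratio (TSA over untreated, TMM) of each tested gene in 7 lists of iron and heme handling, coloured by call, with a black bar at each list's median and a dashed line at the median of all genes (-0.11). The plasma scavenger list lies wholly to the right (median 4.20), and the mitochondrial list lies around the dashed line (median 0.14).

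Over all 84 tested genes of these lists, TMM scaling gave 34 higher and 10 lower (40.5% and 11.9%, against 26.0% and 27.4% of all genes). Total counts gave 22 higher and 25 lower, against 16.0% and 48.7% of all genes. The lists were picked by hand, share the hepatocyte origin of many of their genes and were not tested against other genes.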

How the data were processed

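The labels assign 1 liver library to TSA and 1 to no treatment. The deposited counts are whole reads per gene symbol with no scaling, as the values show and per the file headers. The deposited FPKM were formed by the authors from these counts, a gene length and the library total: the implied length was equal in both libraries, to within 0.1 base, for each of the 14271 genes that could be compared. The submitters' processing notes name Trimmomatic, HISAT2, Bowtie2 and DESeq. Which genome build, annotation and strand setting were used is not stated.

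Counts were scaled by TMM (edgeR 4.0.16, R 4.3.3; factors 0.744 for TSA and 1.34 for untreated). Genes with at least 20 summed counts (13027) were compared by the exact conditional binomial interval (Clopper-Pearson, 95%; scipy 1.17.1, Python 3.11.15). Where a library had 0 counts, 3 counts were used as a floor. Intervals of pair ratios are normal on the log scale with the variance summed over 1/count. The calling was tested on simulated data. These held counting error alone and known scaling factors, so spread between libraries and the choice of scaling were not covered. Alternatives were total counts, DESeq2 1.42.0 size factors, upper quartiles, totals without the 20 most abundant genes, FPKM with 0.1 added, other count minimums and other thresholds. The 10 genes and the lists were chosen with earlier results of these data known, so nothing here is independent support of those results. Any list member could be named, and those with most counts or the largest difference in each list are, except for some that are not reported here. In the lists, *Hjv*, *Erfe*, *Skp1* and *Flvcr1* were matched through older symbols.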

Additional observations from a re-analysis of the deposited data

How the results depend on the processing

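No paired analysis was possible because each group has 1 library. *Hamp*, *Tfr2*, *Hfe* and *Trf* were called higher under every scaling tried, with the lowest ratios from total counts and the deposited FPKM. Of the 10 iron genes 0 were lower with TMM, 2 (*Tfrc* and *Ireb2*) with total counts, 2 with the deposited FPKM, and 1 with totals without the 20 most abundant genes or at a 1.5-fold threshold. Of the iron pathway genes 34 were higher and 10 lower with TMM, and 22 were higher and 25 lower with total counts and with FPKM. Without the 20 most abundant genes in the totals 25 were higher and 17 lower, and at a 4-fold threshold 22 were higher and 3 lower. At 2-fold, 26.0% of all genes were higher and 27.4% lower with TMM, and 16.0% and 48.7% with total counts. No share of all genes was taken at the other settings, so the counts there cannot be set beside all genes. The ratios between gene pairs within a library do not depend on the scaling. Depth limits *Hamp2* (3 counts untreated), *Erfe* (5 counts with TSA), *Atoh8* (5 counts untreated) and *Steap1* (0 counts with TSA).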
